A study of Homo sapiens with 48 samples.

Results

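Translation efficiency (TE), the amount of ribosome-protected fragments (RPFs) a gene has for its amount of mRNA, was described at baseline in uninduced control SW480 cells. The members are the 10836 genes present in both the RPF and the total RNA table, of 12256 genes in either, and the samples are the 8 libraries of shCTRL -DOX among 48 in the series. SW480 is a human colorectal adenocarcinoma line, and the shCTRL cells are a pool transduced with a doxycycline (DOX)-inducible non-targeting shRNA and kept with DMSO for 5 days, so that the hairpin was uninduced. The experiment was run 4 times in separate weeks, and each lysate gave 1 RPF library and 1 library of total cytoplasmic RNA. The same cells with 1 µg/ml DOX, and SW480 cells carrying an inducible shRNA against EIF2B1 or EIF2B4, also uninduced, were used for comparison.

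A ribosome that is elongating shields a short piece of mRNA from nuclease, so the number of such pieces on a coding sequence (CDS) follows the number of ribosomes on it. The ratio of RPFs to mRNA therefore reports how many ribosomes an mRNA carries on average, which rises with the rate of initiation and also where ribosomes move slowly. Known features that hold ribosomes off a CDS include upstream open reading frames (uORFs) in the 5′ untranslated region (5′UTR), iron-responsive elements (IREs) near the cap, and the terminal oligopyrimidine (TOP) tract of ribosomal protein mRNAs.

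The deposited values are regularized log2 values, made separately for RPFs, counted on the CDS, and for total RNA, counted on the whole transcript. Each library was centred on its median over the shared genes, and log2 TE is the centred RPF value minus the centred total RNA value of the same lysate. A log2 TE of 0 is thus a gene at the same distance from the library median in RPFs and in total RNA. Because a long untranslated region adds total RNA reads but no RPFs, levels of different genes were compared per length, by adding log2 of transcript length over CDS length and centring again on the median gene. This log2 TE per length exists for 10548 genes whose transcript was found in GENCODE v29 on GRCh38. The files give no read counts, so the depth behind each value is unknown.

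TE differed widely between genes and little between replicates. Over the 10836 genes log2 TE ran from -12.90 to 7.95, and the interval from the 5th to the 95th percentile, -2.47 to 2.74, covers a 37.1-fold difference. The median SD of a gene over the 4 replicates was 0.212, and Pearson's r between replicates, across genes, was between 0.972 and 0.990. It was 0.987 between replicates 1 and 3 and 0.990 between 2 and 4, and 0.972 to 0.978 for the other pairs. The SD of log2 TE over genes was 1.76 and 1.70 in replicates 1 and 3, and 1.55 and 1.57 in 2 and 4. RPFs and total RNA were correlated across genes with r = 0.673 (Spearman's rho 0.643, n = 10836 genes, a description across genes that share libraries). The plot of RPFs against total RNA shows this spread around the diagonal.

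**Figure D1:**
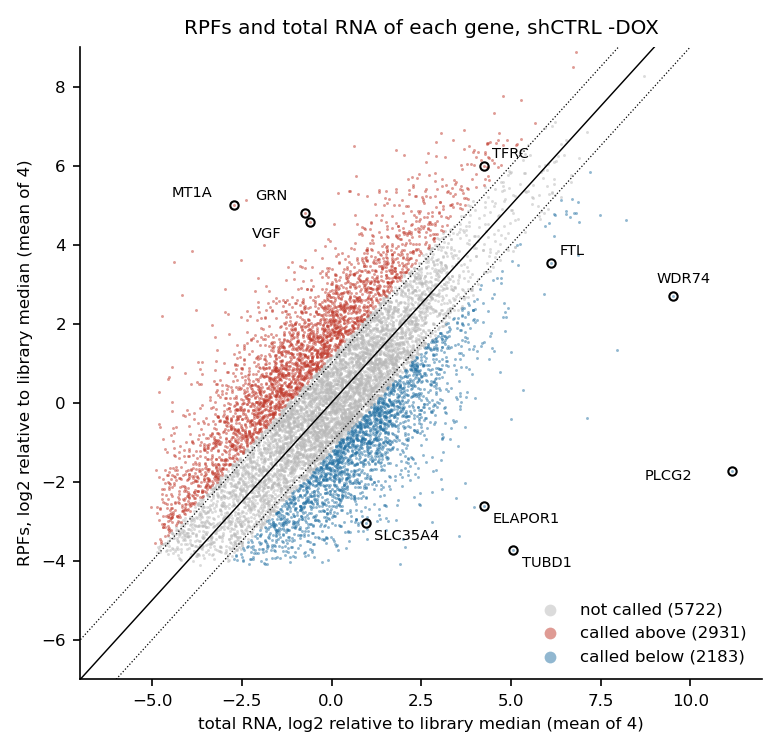
Mean RPF level (y axis) against mean total RNA level (x axis) of each gene in shCTRL -DOX, both log2 relative to the library median, as means of 4 replicates. Red points (2931 genes) were called above and blue points (2183) below the 2-fold limit in TE, the solid line marks equal values and the dotted lines a 2-fold difference, and 10 genes of the text are circled. PLCG2 and WDR74 stand farthest to the right, with the highest total RNA levels.

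With limma's test against a 2-fold limit (two-sided, Benjamini-Hochberg adjusted p under 0.1), 2931 genes lay above the limit, 27.0% of those tested, and 2183 lay below it, 20.1%. Per length, 2205 genes (20.9%) were called above and 2503 (23.7%) below. In all 4 replicates 2811 genes were more than 2-fold above and 2082 more than 2-fold below, or 2085 and 2420 per length. Next to the limit, TBCC at a log2 TE of 1.19 was called above and PIP4K2C at 1.18 was not, while MELK at -1.20 was called below and SHISA5 at -1.25 was not. Per length CXCR6 (1.20) and METTL6 (-1.20) were called, and KLC3 (1.26) and USP46 (-1.21) were not.

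The epithelial identity of the line was visible in both tables. Of 13 colon epithelium markers 8 were present in each, among them the keratin genes KRT8 and KRT18 at or above the 98th percentile of total RNA and the 99th of RPFs. The adhesion gene CDH1 was low (4.09th percentile in total RNA), and KRT20, VIL1, CDX1, GPA33 and CEACAM5 were absent. Of 9 immune markers 2 were in the RPF table and 1 in the total RNA table, and of 9 markers of fibroblasts and endothelium there were 0.

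The genes at the far ends of the ranking mostly had sequence in common with other RNAs. Among the 12 genes with the highest log2 TE, 11 have a CDS that shares at least 5% of its 30-base stretches with another gene of the tables, against 4.91% of all 10548 genes with a transcript. They include the metallothionein MT1A, the readthrough gene NME1-NME2, the hnRNP A1 copy HNRNPA1L2, the tubulins TUBB8 and TUBA1A, BOLA2, whose CDS is 100% shared with BOLA2B, and the autophagy gene copy MAP1LC3B2. Reads from such stretches cannot be assigned to 1 gene, and how the counting divided them was not tested, so these values are uncertain.

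MT1A shows the size of the effect at this end. Its log2 TE was 7.93, 7.73, 7.77 and 7.50 in replicates 1 to 4 (7.73 ± 0.18, SD, n = 4, as for every ± of a gene here; adjusted p = 2.44e-14 by limma against the 2-fold limit). Its centred RPF level was 5.00 while its centred total RNA level was -2.73, so the gene stood high in RPFs and low in mRNA. MT1X, another metallothionein gene of the same chromosome, had a log2 TE of 2.54 ± 0.26.

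At the low end the shared sequence was with small noncoding RNAs. Of the 12 genes with the lowest log2 TE, 11 had a transcript to examine, and 8 of these hold 30-base stretches of a small noncoding RNA or its pseudogene, against 15.2% of all genes. PLCG2, a phospholipase C of immune cells, had log2 TE values of -12.82, -13.11, -13.00 and -12.68. Its total RNA level was the highest of all genes (11.2 on the centred log2 scale), while its RPF level was -1.74. The PLCG2 transcript carries 289 such stretches in its 3′UTR, which match the 7SK pseudogene RN7SKP176.

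WDR74, a ribosome assembly factor, was next in total RNA, with a log2 TE of -6.83 ± 0.30, and its 5′UTR holds 162 stretches of the U2 RNA gene RNU2-2P. TUBD1, which encodes delta-tubulin, followed PLCG2 in the ranking at -8.81 ± 0.29 and holds 101 stretches of the signal recognition particle RNA family in its 3′UTR. HASPIN, a histone H3 kinase (-7.51), NMNAT3 (-6.92) and DESI1 (-6.64) hold between 25 and 82 in theirs. RPFs were counted on the CDS and total RNA on the whole transcript, so stretches in an untranslated region enter only the total RNA value. Their part in these values was not tested.

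A set of genes with distinct sequence was therefore formed after these values had been seen. It holds the 8218 genes whose CDS shares under 5% of its 30-base stretches with another gene, whose transcript holds none of a small noncoding RNA and whose CDS is at least 50% of the longest one annotated for the gene. In it 2344 genes were more than 2-fold above in all 4 replicates and 1362 more than 2-fold below, or 1603 and 1865 per length.

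The 12 highest of this set included genes for secreted, lysosomal and cell surface proteins. GRN, which encodes the secreted and lysosomal growth factor progranulin, was first, with log2 TE values of 5.84, 5.39, 5.72 and 5.25 (5.55 ± 0.28; adjusted p = 1.97e-12 by limma). Per length it was 4.66, so that GRN had 25.4 times the RPFs of the median gene per base of CDS and per mRNA. All 4 replicates lay above 5 on the log2 scale.

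VGF, a secreted neuropeptide precursor, had values of 5.41, 4.94, 5.25 and 5.15. SEZ6L2, a surface protein best known from neurons, had a mean of 5.28 ± 0.46, and the zinc transporter SLC39A4 one of 5.13 ± 0.32. GAA, the lysosomal alpha-glucosidase, followed at 4.95 ± 0.34, and AGRN, the basement membrane proteoglycan agrin, at 4.85 ± 0.32. The secreted glycoprotein LGALS3BP (4.84), the laminin receptor BCAM (4.77), the lipase PNPLA2 (4.76), the membrane protein VASN (4.70) and the splicing regulator RAVER1 (4.66) came next. ATOX1, a copper chaperone, was the last of the 12 at 4.66 ± 0.48.

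Per length the 12 highest held other genes too. ATOX1 stood at 4.63, and NDUFAF3 (4.44), an assembly factor of respiratory complex I, the adhesion receptor ADGRG1 (4.31), the splicing protein SNRPF (4.14), the synaptobrevin gene VAMP2 (4.14), the lysosomal peptidase TPP1 (4.12) and the ubiquitin ligase SYVN1 of the endoplasmic reticulum (ER) (4.05) were among them. The highest value, 6.13 for DERPC, rests on a CDS of 36 bases in the v29 annotation and says little of this gene.

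The lowest of the same set included genes of the cell cycle, signalling and mRNA decay. ELAPOR1, a transmembrane protein of the endosome and lysosome system, was lowest, with log2 TE values of -6.80, -6.84, -6.71 and -7.15. Its mRNA was abundant (4.25 above the library median in total RNA) and its RPFs were scarce (-2.63). Per length it stood at -7.97 ± 0.19, and the next gene, the circadian transcription factor ARNTL2, at -5.84 ± 0.16.

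CCSER2 (-5.03), DCP2, the catalytic subunit of the decapping enzyme (-4.87), CCDC18 (-4.84), the GTPase-activating protein ARHGAP5 (-4.84), the receptor adaptor FRS2 (-4.84), SGO2, the shugoshin that guards centromeric cohesion (-4.82), and TEX15 (-4.81) followed per length. SGO2 had values of -5.13, -4.58, -4.88 and -4.70 per length, and ARHGAP5 of -5.10, -4.49, -5.04 and -4.74. Without the length term the 12 lowest also held C6orf62 (-5.83), SCOC (-5.70), the RING protein RNF11 (-4.77), ZFAND1 (-4.67), the RNA polymerase subunit POLR2K (-4.55), SNRPE (-4.49) and the kinase MAP2K4 (-4.44). In the plot of genes of both ends the replicates of each stand close together and far from the median gene. The genes were chosen as the ends by log2 TE, each more than 2-fold away in all 4 replicates. Their distance from the median gene therefore follows largely from the choice.

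Genes with high and low TE differed, on the median, in the bases at the third codon position. Most amino acids have several codons that differ there, so the GC content at the third position (GC3) measures the choice among synonymous codons. The first 90 bases of the coding sequence are shown for 1 gene of the high end and 2 of the low end, with the third base of each codon in capitals. They lie within VGF (chr7:101162509-101165593, minus strand), SGO2 (chr2:200526157-200583782, plus strand) and ARHGAP5 (chr14:32076985-32155083, plus strand), with GRCh38 gene bounds.
VGF: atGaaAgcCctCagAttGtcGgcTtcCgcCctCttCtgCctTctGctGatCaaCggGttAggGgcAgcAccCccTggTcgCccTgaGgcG
SGO2: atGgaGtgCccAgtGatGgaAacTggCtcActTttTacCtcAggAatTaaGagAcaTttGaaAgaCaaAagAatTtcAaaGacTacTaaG
ARHGAP5: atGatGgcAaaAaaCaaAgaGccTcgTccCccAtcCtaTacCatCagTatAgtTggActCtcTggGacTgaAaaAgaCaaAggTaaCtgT
In these 30 codons G or C stands at the third position of 20 in VGF, against 12 in SGO2 and 12 in ARHGAP5. Over the whole CDS, GC3 was 73.2% in GRN, 82.9% in VGF, 30.4% in SGO2 and 28.96% in ARHGAP5. These sequences were chosen after the values were seen, and not every gene of the ends is like them, since GC3 was 63.8% in ELAPOR1 and 58.8% in ATOX1. The 12 highest and 12 lowest genes of the distinct set by log2 TE had a median GC3 of 81.8% (58.8% to 87.9%) and 45.4% (32.7% to 63.8%), while the 12 highest and lowest of all genes, which mostly share sequence with other RNAs, hardly differed (63.2% and 63.7%).

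Across all genes GC3 followed TE closely. Spearman's rho between GC3 and log2 TE per length was 0.629 over 10509 genes, and 0.681, 0.576, 0.657 and 0.571 in replicates 1 to 4 (a description across genes of the same libraries). Among genes with distinct sequence it was 0.659. In the lowest decile of genes by TE per length the median GC3 was 37.8%, and in the highest decile 76.2%.

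When genes were instead sorted into deciles by GC3, the share called below fell from 69.7% in the lowest decile to 2.28% in the highest, and the share called above rose from 1.43% to 49.4%. The median log2 TE per length rose at every step, from -1.84 to 1.20. The 2 libraries did not contribute alike. Median total RNA went from 0.98 in the lowest decile of GC3 to -1.14 in the highest, while median RPFs went from -0.50 to 0.31. Spearman's correlation with GC3 was -0.395 for total RNA and 0.102 for RPFs, and -0.294 and 0.138 when each was taken per length. RPF and total RNA libraries were prepared with different kits, and the part of library preparation in the relation with GC3 was not tested.

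The GC content of the whole CDS went with TE about as closely as GC3. Its rho was 0.6227 per length and 0.6255 with log2 TE, beside 0.6292 and 0.6195 for GC3. Its median was 42.05% in the lowest and 60.79% in the highest decile by TE per length. These values therefore do not single out the third codon position. The features that follow varied less along the ranking. From the lowest to the highest decile by TE per length, the median CDS length fell from 1830 to 975 bases, and the share of genes with an upstream ATG in the 5′UTR from 61.9% to 34.2%. CDS length is itself part of the length term, and its rho was -0.226 per length but -0.020 with log2 TE. By log2 TE the median CDS had 1281 bases in the lowest and 1290 in the highest decile. A purine 3 bases before the start codon, a feature of a strong start context, was present in 83.8% of the lowest and 90.7% of the highest decile, and a G just after the start codon in 46.1% and 57.6%. The rho of 3′UTR length was -0.289 with log2 TE and 0.022 per length, so this relation was seen only on the scale without the length term. A pyrimidine run at the annotated start was found in 2.94% of the lowest and 1.52% of the highest decile, with no steady trend between them.

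Gene families differed in their median TE. The families were chosen with earlier results of these data known, and are described here by counts and medians of log2 TE per length, beside 0.00 for the median gene and the 20.9% above and 23.7% below of all genes. The plot of gene families gives each median in the 4 replicates.

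Metabolic and secretory pathway genes stood high. Of 15 glycolysis enzymes, which turn glucose into pyruvate and lactate, 11 were called above and 0 below, with a median of 1.46. The members ran from phosphofructokinase PFKL at 2.27 ± 0.27 to lactate dehydrogenase LDHA at 0.19 ± 0.22. LDHA was among the most abundant mRNAs (5.35 above the library median in total RNA), so its RPFs were high with a TE near that of the median gene.

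Of 16 ER chaperones, which fold secreted and membrane proteins, 9 were called above and 0 below (median 1.23). The thiol isomerase PDIA3 was highest at 3.19 ± 0.24 and DNAJC3, a cochaperone and inhibitor of the kinase PERK, lowest at -1.10 ± 0.36. Cholesterol synthesis enzymes had a median of 0.92, with 10 of 23 above and 1 below, from DHCR7 (3.18), which makes the last step to cholesterol, to the desaturase SC5D (-1.32). Among collagens, laminins, integrins and genes named after them 11 of 27 were above and 3 below (median 0.97). The hemidesmosome integrin ITGB4 stood at 3.27, and ITGAE, an integrin of intraepithelial lymphocytes, at -3.14.

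Multiprotein machines differed from each other. Nuclear-encoded subunits of oxidative phosphorylation had a median of 0.69, with 28 of 78 above and 5 below, and proteasome subunits 0.65, with 13 of 45 above and 2 below. The highest oxidative phosphorylation member, SDHC at 5.09, has an annotated transcript of 13566 bases for a CDS of 507, so this value rests on the length term (its log2 TE was 1.63). The lowest was COX7B, a subunit of cytochrome c oxidase, at -3.09. In the proteasome PSMB2 was highest (2.94) and PSMA4 lowest (-1.99). The 8 subunits of the CCT chaperonin, which folds actin and tubulin, lay close together, from TCP1 at -0.05 to CCT7 at 1.28, with a median of 0.21.

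Clustered histone genes had a median of 1.55 with 33 of 53 above and 1 below, from H2BC18 (6.14) to H2AC14 (-1.54), but only 18 of the 53 have distinct sequence. Those 18 had a median of 1.66. Histone mRNAs of this kind have no poly(A) tail, and the total RNA libraries were made by rRNA depletion rather than poly(A) selection.

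Cytosolic ribosomal proteins had low medians. Large ribosomal subunit proteins had a median of -1.01, with 2 of 46 above and 18 below, and small subunit proteins -0.76, with 3 of 31 above and 14 below. Both groups were among the most abundant mRNAs, with a median centred total RNA level of 5.78 and 5.62. RPL5, which carries the 5S rRNA into the large subunit, had log2 TE per length values of -3.56, -2.67, -3.15 and -2.73, the lowest of its group. RPL36 was the highest at 1.51 ± 0.21. All 4 of its replicates were above all 4 of RPL5, which follows in part from taking the ends of the list. In the small subunit RPS16 was highest (2.54 ± 0.69), and RPS10 lowest at -6.05, with 91.6% of its CDS shared with the readthrough gene RPS10-NUDT3.

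The 14 other measured mRNAs known for a TOP tract had a median of -0.88, with 1 above and 5 below. TPT1, an abundant growth-related protein, was lowest at -4.20 ± 0.43, although its total RNA was the fourth highest of all genes. A pyrimidine run at the annotated start, as searched here, was found in 28.3% of large and 25.8% of small subunit genes, against 2.07% of all genes, and in 0 of the 14 other TOP mRNAs, so annotated starts mark the tract poorly.

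Initiation factors had a median of -0.64, with 4 of 36 above and 14 below, and varied between replicates more than most lists (SD of the list median 0.35). EIF4E, which binds the cap, was highest at 3.29, but its annotated transcript has 11523 bases for a CDS of 651 and its log2 TE was 0.42. Other lists of the translation machinery differed from each other. Ribosomal protein paralogs had 0 of 5 above and 2 below, and the eIF2 subunits, kinases and phosphatase 1 of 12 above and 4 below. Cytosolic aminoacyl-tRNA synthetases, which charge tRNAs, had a median of 0.21 with 4 of 21 above and 2 below, and elongation and release factors -0.59 with 2 of 11 above and 2 below. Mitochondrial ribosomal proteins had a median of 0.34 with 21 of 74 above and 10 below.

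Zinc finger genes named ZNF formed the largest low group. Of 286 members 158 were called below and 17 above, and the median was -1.41. They are also rare mRNAs, with a median centred total RNA of -1.33 and RPFs of -2.48. Among the 164 with distinct sequence the median was -1.18. ZNF385A stood highest at 3.54, and ZNF485 lowest at -7.26, with 18 stretches of small noncoding RNA in its 3′UTR. Kinesins, the motor proteins of microtubules, had a median of -1.06, with 1 of 30 above and 13 below, from KIF22 (1.25) to KIF20B (-3.56).

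Removing the trend with GC3 moved some of these groups. The medians became 0.96 for glycolysis, 1.31 for ER chaperones, 0.60 for clustered histones, -0.84 for ZNF genes, -0.93 for kinesins and -1.31 for large ribosomal proteins, and thus kept their side of the median gene. Initiation factors went from -0.64 to 0.10, the eIF2 subunits, kinases and phosphatase from -1.02 to 0.22, and the CCT chaperonin from 0.21 to 1.46. Single genes also crossed the median gene, with SC5D going to 0.33, EIF2S3 to 0.10 and TCP1 to 1.61, the last called above. The initiation factor and eIF2 lists have low GC3, with a median of 44.2% and 41.6% beside 59.3% over all genes.

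mRNAs of the uORF stress list had a low median TE. Under stress, when eIF2 is phosphorylated, mRNAs of this kind are known to keep or gain translation, while in resting cells the uORFs take up scanning ribosomes. Of 14 members of the uORF stress list with a length 2 were called above and 6 below, with a median log2 TE per length of -1.06, and 85.7% of them have an upstream ATG in the annotated 5′UTR, against 47.6% of all genes. The median was -0.57 with the GC3 trend removed. SLC35A4 was lowest, with values of -3.33, -4.01, -3.36 and -3.87, and its 5′UTR of 1107 bases holds 17 closed uORFs, the longest of 103 codons. IBTK followed with -3.38, -3.36, -3.70 and -3.55, and 5 closed uORFs. Both genes were called below and lay more than 2-fold below the median gene in all 4 replicates.

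Transcription factors and regulators of the same list lay on both sides of the median gene. DDIT3 (CHOP) was at -2.04 ± 0.31, IFRD1 at -1.82 ± 0.35 and ATF5 at -1.53 ± 0.08, all called below. ATF4, the central transcription factor of the integrated stress response, had no matched transcript length, and its log2 TE was -1.97 ± 0.17 with total RNA 4.01 above the library median. PPP1R15A and PPP1R15B, the regulatory subunits that direct phosphatase to eIF2, were at -0.89 and -1.15 and CEBPG at -0.96, none of them called. CEBPB was at 0.66 ± 0.26 and was not called. CEBPA (1.21) and the arginine transporter SLC7A1 (3.03 ± 0.20) were called above, and each has 1 closed uORF, of 5 and 110 codons. IFRD1 (-0.52) and CEBPA (-0.07) were not called with the GC3 trend removed.

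Regulatory uORFs were also examined in mRNAs of polyamine metabolism. AMD1 encodes the decarboxylase that makes the aminopropyl donor for spermidine and spermine, and its uORF of 6 codons is known to stall ribosomes when polyamines are plentiful. It is printed because it is the only uORF found in this 5′UTR, with start and stop codon in capitals (transcript bases 27 to 47, gene at chr6:110874770-110895713, plus strand, GRCh38).
AMD1: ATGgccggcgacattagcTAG
AMD1 had log2 TE per length values of -1.82, -1.73, -1.88 and -1.90 (-1.83 ± 0.08, adjusted p = 3.56e-06 by limma), a narrow range. AZIN1, which blocks antizyme, was at -2.46 ± 0.36, SAT1, which breaks polyamines down, at -1.81 ± 0.22 and ODC1, the first enzyme of their synthesis, at -1.30 ± 0.17, all called below. OAZ1, the antizyme that needs a frameshift, was at -0.91 and was not called. With the GC3 trend removed AMD1 was at -0.92, AZIN1 at -0.82 and ODC1 at -0.64, none of them called, and SAT1 at -1.48, still called below. In the same list the cell cycle inhibitors CDKN1A (2.58 ± 0.42) and CDKN1B (1.98 ± 0.37) were called above, and the whole list had 5 of 16 above and 5 below with a median of -0.02. Not all polyamine genes were low. SRM had the highest log2 TE of the list without the length term, above CDKN1A at 1.71. The annotated 5′UTRs of SRM, OAZ1 and CDKN1A held 0 upstream ATGs.

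Among mRNAs with IREs, those of ferritin and of iron uptake stood on opposite sides of the median gene. An IRE is a hairpin whose loop is bound by the iron regulatory proteins when iron is low, which blocks translation from a 5′UTR and stabilises an mRNA from a 3′UTR. The loop and its bulged C were searched as CNNNNNCAGTG on the transcript strand, a pattern found by letters alone in 7.15% of 5′UTRs and 30.1% of 3′UTRs. Matches are shown for 4 iron genes, with the fixed letters of the pattern in capitals, 9 bases before and 10 after, and the region in the name. The genes lie at chr11:61964285-61967660 (FTH1, minus strand), chr19:48965301-48966878 (FTL, plus), chr3:196049284-196082189 (TFRC, minus) and chr12:50985992-51026384 (SLC11A2, minus) of GRCh38.
FTH1 5′UTR: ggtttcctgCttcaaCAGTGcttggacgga
FTL 5′UTR: tgtctcttgCttcaaCAGTGtttggacgga
TFRC 3′UTR, first of 5 matches: tataattatCggaagCAGTGccttccataa
TFRC 3′UTR, last of 5 matches: agtaattatCgggaaCAGTGtttcccataa
SLC11A2 3′UTR, first of 2 matches: ggtagccatCagagcCAGTGtgtttctatg
The ferritin light chain gene FTL had log2 TE per length values of -2.77, -3.35, -3.07 and -3.34, and the heavy chain gene FTH1 of -1.55, -1.44, -2.21 and -1.34. The transferrin receptor gene TFRC had values of 1.38, 1.64, 1.72 and 1.73, and the iron transporter gene SLC11A2 of 1.86, 1.69, 1.75 and 1.84. Every replicate of both ferritin genes was below 0 and every replicate of both uptake genes above it, and all 4 genes were called.

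FTH1 also has 1 match in its 3′UTR, and other members had matches in either region or in both. EPAS1 (HIF-2 alpha), with 1 match in the 5′UTR and 1 in the 3′UTR, was called below at -1.22 ± 0.14. CDC14A, with 1 in the 5′UTR and 2 in the 3′UTR, was called below at -1.88, and CDC42BPA, with 3 in the 3′UTR, at -3.31. In ferritin the low TE went with abundant mRNA, since total RNA was 6.12 above the library median for FTL and 6.07 for FTH1, beside 4.25 for TFRC and 0.15 for SLC11A2.

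Selenoprotein mRNAs carry an in-frame TGA that is read as selenocysteine with the help of a 3′UTR hairpin, and a ribosome that fails there ends translation. Of 17 members 4 were called above and 2 below, with a median log2 TE per length of 0.20. An in-frame TGA was found in 15 of 16 members whose CDS was searched. The codon is shown in capitals, with the codons around it, for the early position in SELENOW (chr19:47778572-47784681, plus strand) and the late ones in MSRB1 (chr16:1938210-1943326, minus) and TXNRD2 (chr22:19875522-19941820, minus), with GRCh38 gene bounds.
SELENOW, codon 13 of 87: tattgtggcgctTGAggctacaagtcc
MSRB1, codon 95 of 116: cagtcccgattcTGAatattcagcagc
TXNRD2, codon 500 of 501: gtgacaggctgcTGAggg
SELENOW had values of -2.38, -2.43, -2.45 and -2.37, MSRB1 of 2.56, 1.78, 2.32 and 1.61, and TXNRD2 of 1.48, 1.18, 1.46 and 1.25. All replicates of SELENOW lay below those of the other genes, and all 3 genes were called.

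Across the 15 genes TE was higher the later the selenocysteine codon stood (Spearman's rho 0.632, n = 15 genes, a description). The 6 genes with the codon in the first 50% of the CDS had a median of -0.52, from SELENOW to GPX1 at 0.23, with the glutathione peroxidase GPX4 at -0.82 and SEPHS2 at -0.81. The 9 genes with a later codon had a median of 1.06, from thioredoxin reductase TXNRD1 at -0.20 to MSRB1 at 2.07. The division at the middle of the CDS was chosen after the values were seen, so it is given with no test. SELENOT, the lowest member at -4.32, showed no in-frame TGA in the CDS of 137 codons that v29 gives for its transcript.

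**Figure D2:**
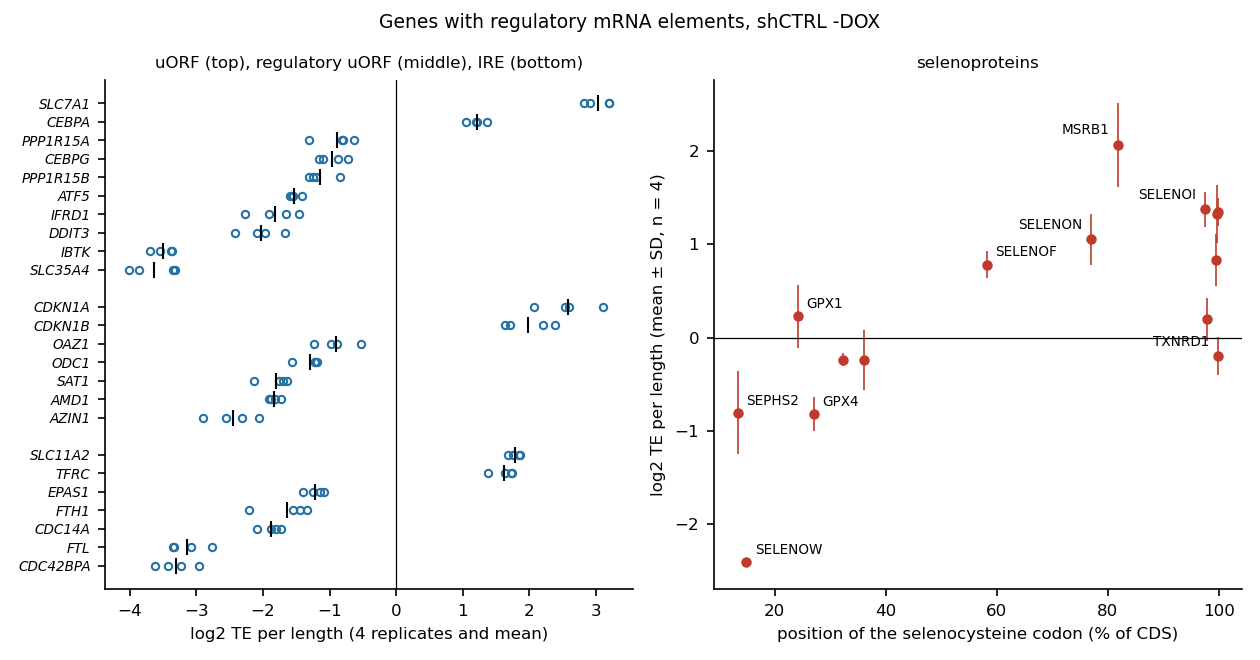
Left, log2 TE per length (x axis, 0 is the median gene) in 4 replicates (circles) and their mean (bars) for genes of the uORF stress list (top), the regulatory uORF list (middle) and the IRE list (bottom). Right, log2 TE per length (mean ± SD, n = 4) of 15 selenoprotein genes against the position of the selenocysteine codon in percent of the CDS, with 9 genes named. FTL and FTH1 lie left of 0 and TFRC and SLC11A2 right of it, and selenoprotein genes with an early codon lie lower than most with a late one.

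The genes the series was built around stood at or above the median gene before any knockdown. eIF2B is the exchange factor that reloads eIF2 with GTP, and its 5 subunits had a median log2 TE per length of 0.71 with 2 called above and 0 below. EIF2B2 was highest (2.21 ± 0.11), followed by EIF2B1 (1.45 ± 0.18), both called, and by EIF2B4 (0.71 ± 0.13), EIF2B3 (0.09 ± 0.26) and EIF2B5 (0.08 ± 0.09). The last 2 differ by less than their spread. EIF2B1 and EIF2B2 hold 20 and 10 stretches of small noncoding RNA in their 3′UTR. The 3 subunits with distinct sequence had a median of 0.09. The order depended on the scale, since in log2 TE without the length term EIF2B4 was highest. There EIF2B4 (1.80), EIF2B2 (1.45) and EIF2B1 (1.30) were called above.

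The partners of eIF2B covered a wider range, with 1 of 12 above, 4 below and a median of -1.02. The phosphatase catalytic subunit PPP1CA stood at 2.18 ± 0.20 and eIF2 subunits EIF2S1 at 0.53 ± 0.35 and EIF2S2 at 0.15 ± 0.35. EIF2S3, with 54.4% of its CDS shared with another gene, was at -1.503 ± 0.46. Of the 4 kinases of eIF2, EIF2AK2 (PKR) was at -0.11 ± 0.36 and was not called, and EIF2AK1 (HRI, -1.23 ± 0.11), EIF2AK3 (PERK, -1.38 ± 0.28) and EIF2AK4 (GCN2, -1.89 ± 0.20) were called below. The calls depended on the scale. In log2 TE without the length term EIF2AK2 (-1.44) and EIF2AK1 (-1.19) were called below and EIF2AK3 (-0.57) and EIF2AK4 (-0.76) were not. The annotated EIF2AK2 transcript has 10042 bases for a CDS of 1653. With the GC3 trend removed EIF2AK2 stood at 1.82 per length and was called above, EIF2AK4 (-1.48) was called below, and EIF2AK1 (-0.60) and EIF2AK3 (-0.39) were not called.

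The ranking was also present in uninduced cells of the other lines, which the choice of genes did not use. These values are not independent of shCTRL. All lines stand in the same set of regularized log2 values for each library type. They also have in common the weeks, the transcript of each gene and any sequence shared with other RNAs. Of the genes called above in shCTRL, 83.3% were called above in shEIF2B1 (97.3% of that line's calls) and 77.5% in shEIF2B4 (98.7%). Of those called below, 81.5% were called below in shEIF2B1 (95.7%) and 75.2% in shEIF2B4 (97.3%). GRN had a log2 TE of 5.14 ± 0.40 in shEIF2B1 and 5.18 ± 0.64 in shEIF2B4, ELAPOR1 of -6.93 ± 0.34 and -6.87 ± 0.58, SLC35A4 of -4.06 ± 0.34 and -4.14 ± 0.67, and FTL of -2.86 ± 0.35 and -2.81 ± 0.60. The 3 comparisons below use the same shCTRL -DOX lysates and are therefore not independent of each other.

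The uninduced shEIF2B1 line differed from shCTRL in many genes by small amounts. With limma and the replicate as a block, 2059 genes (19.0%) were higher and 2924 (27.0%) lower in TE at an adjusted p under 0.1. The median size of a called difference was 0.34 on the log2 scale, and 6 called genes differed by over 2-fold. Of the called genes that lay over 2-fold from the median in shCTRL, 0 changed sides in shEIF2B1. Only a difference of over 2-fold could have moved such a gene, so this count says little about stability. In shEIF2B4, 7 genes (0.0646%) were higher and 1 (0.00923%) lower, and without replicate 1 the calls numbered 4742. Without the block limma called 0 genes in either line, while 1184 and 791 had a p under 0.05 before adjustment. The median size of the difference over all genes was 0.207 in shEIF2B1 and 0.209 in shEIF2B4, so the lines differ in their count of calls far more than in the size of their differences. The differences between the 2 lines were not tested.

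These differences ran along GC3. Across 10509 genes rho between GC3 and the difference from shCTRL was -0.808 for shEIF2B1 and -0.808 for shEIF2B4. In the lowest decile of GC3 the median difference of shEIF2B1 was 0.23, 0.49, 0.22 and 0.39 in replicates 1 to 4, and in the highest decile -0.28, -0.38, -0.28 and -0.35. For shEIF2B4 it was -0.05, 0.33, 0.70 and 0.36 in the lowest decile and 0.07, -0.29, -0.70 and -0.35 in the highest. Replicate 1 of shEIF2B4 thus went the other way from the remaining replicates, and replicate 3 went farthest.

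GRN and VGF, at the GC3-rich end, were lower in shEIF2B1 by 0.41 (SE 0.08, adjusted p = 0.00205 by limma with the block) and 0.41 (SE 0.08, adjusted p = 0.00245). SGO2 and ARHGAP5, at the GC3-poor end, were higher by 0.50 (SE 0.13, adjusted p = 0.00942) and 0.52 (SE 0.10, adjusted p = 0.00155). The rho of TE per length with GC3 was 0.524 ± 0.097 in shEIF2B1 and 0.516 ± 0.120 in shEIF2B4 beside 0.621 ± 0.056 in shCTRL (mean and SD of 4 lysates). In shEIF2B1 it was 0.619, 0.435, 0.596 and 0.446 in replicates 1 to 4, below shCTRL of the same replicate each time. In shEIF2B4 it was 0.694, 0.480, 0.444 and 0.445, above shCTRL in replicate 1 and below it in the others. With the GC3 trend removed from each lysate, 642 genes were called for shEIF2B1 and 9 for shEIF2B4.

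DOX, which in shCTRL also induces the non-targeting hairpin, moved few genes. Effects of DOX and of the hairpin cannot be told apart in this comparison. Of 10836 genes 128 (1.18%) were higher and 147 (1.36%) lower, 0 of them by over 2-fold, and the median size over all genes was 0.107. Large ribosomal subunit proteins took part, with 17 of 46 lower and 0 higher. Their median log2 TE per length went from -0.995 ± 0.092 in the uninduced to -1.44 ± 0.35 in the induced lysates (means of the list median over 4 lysates). Small subunit proteins (12 of 32 lower), other TOP mRNAs (7 of 16) and elongation and release factors (5 of 12) also had members lower and 0 higher. Across 10509 genes rho between GC3 and the DOX difference was -0.453. Glycolysis enzymes, ER chaperones, ZNF genes, clustered histones and kinesins had 0 members called in either direction. ELAPOR1 was higher with DOX by 0.65 (SE 0.12, adjusted p = 0.0114 by limma with the block). The count of calls depended on the replicates used, from 2 to 1033 when 1 was left out, was 47 with the GC3 trend removed, and was 0 by limma without the block, where 289 had a p under 0.05 before adjustment.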

How the data were processed

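RPF and total cytoplasmic RNA libraries came from the same lysates of SW480 cells, 4 replicates of each of 6 conditions, and conditions were taken from the labels. The deposited values are regularized log2 values that the authors made with DESeq2 in R 4.3.1, separately for RPFs and total RNA. Before that the authors trimmed reads with cutadapt 1.18, removed duplicates, aligned with Bowtie2 to the GENCODE v38 protein-coding transcriptome, quantified total RNA with RSEM, chose for every gene the transcript with the highest expression and counted RPFs on its CDS. SAMtools 1.9 is named in the submitters' processing notes. Replicate 3 was joined from 2 sequencing runs of 1 library. No counts or totals were used, so depth and counting error are unknown, and 0 columns were left without a sample. No 2 libraries held identical values.

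Log2 TE was fitted in R 4.3.3 with limma 3.58.1 (lmFit, treat at 2-fold, with a trend on the mean level over both libraries in place of the mean TE, two-sided, Benjamini-Hochberg over all genes). Lines and DOX were compared by eBayes with trend and the replicate as a block. The protocol in the labels says that the 4 repeats were done in separate weeks. After condition means were removed 55 of 60 pairs of lysates with the same number correlated over 0.1 in TE (mean r 0.538, against -0.196 for different numbers). p-values measure the spread of regularized log2 values between these weekly cultures. That spread, and the SDs given, are what remained after any shrinkage by the regularized transformation. The procedure was tested on simulated data.

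Lengths and sequences are from GENCODE v29 (97.3% of genes matched, 30.9% with the same transcript version), not the authors' release. Genes named are the 12 highest and lowest called genes more than 2-fold away in all 4 replicates, the extremes of each list, the pairs next to the limit, and members of the uORF, IRE, selenoprotein, eIF2B and eIF2 lists. Markers and genes outside this rule were chosen after their values were seen. Members and lists were chosen with earlier results of these data known. Restriction to distinct sequence and removal of the GC3 trend (loess) were added after seeing the data. Other alternatives were no replicate block, mean centring, a filter on the lowest 25% of genes, a test against 0, a threshold of 0.05, matched transcript versions, CDS lengths less 90 bases, no mean trend, all 24 lysates in 1 fit and leaving out each replicate. Some named items and sequences are not reported here.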

Additional observations from a re-analysis of the deposited data

Results flagged for a closer look

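Of 179 named genes and list medians checked for a replicate standing apart from the other 3, a check that chance trips about 1 time in 20, 9 had one in log2 TE. RP11-15K19.2 had 6.33 in replicate 1 and 7.05 to 7.17 in the others. ZNF485 had -7.48, RNF11 -4.54, CCDC18 -4.13 and MT1X 2.16 in replicate 3. LDHA had 0.47 and ODC1 -1.22 in replicate 1. The median of the eIF2B subunits was 1.21 in replicate 4, and that of the CCT chaperonin 0.61 in replicate 1, beside 1.11 to 1.14 in the others.

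TE at baseline differed between conditions in 4983 genes for shEIF2B1 -DOX against shCTRL -DOX, in 8 genes for shEIF2B4 -DOX and in 275 genes for shCTRL +DOX, each by the test of the difference with the replicate as a block. The 3 counts share the shCTRL -DOX lysates.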

How the results depend on the processing

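Tested against 0 in place of 2-fold, 5304 genes lay above and 4520 below in TE, and 4709 and 4750 per length. Restricted to genes with the same transcript version, which are fewer, 750 were above and 759 below per length. With the GC3 trend removed 1599 were above in TE and 1521 below per length. Without the replicate block 0 genes were called for shEIF2B1, shEIF2B4 or DOX by limma, while 1184, 791 and 289 had an unadjusted p under 0.05. Removing the GC3 trend left 642 genes for shEIF2B1 and 47 for DOX, and the filter on low genes left 0 for shEIF2B4 (1960 unadjusted). Leaving out 1 replicate gave 2794 to 2940 genes above and 2061 to 2175 below in TE, 2077 to 2196 and 2365 to 2514 per length, 3377 to 4521 for shEIF2B1, 1 to 4742 for shEIF2B4 (the highest without replicate 1) and 2 to 1033 for DOX (2 without replicate 3, 13 without replicate 2, 1033 without replicate 1), and put 19 to 20 of 34 list medians above the median gene. Mean centring moved the median of all genes by -0.16 and the filter by -0.12. Over all settings tried 3629 values of single named genes kept their call, 114 lost it, 85 gained one and 6 changed sides. With the GC3 trend removed, 23 calls in TE and 18 per length were lost, 9 and 4 gained, and all 6 changes of side arose there, at 0.33 for SC5D, 1.61 for TCP1, -0.068 for CEBPA, 0.10 for EIF2S3 and 1.82 for EIF2AK2 per length, and 0.10 for EIF2AK2 in TE. The cause of these changes was not tested. The unknown depth, the older transcript annotation behind every length, and shared sequence at both ends of the ranking limit single-gene values.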
